A study of Homo sapiens with 4 samples.

Results

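The integrated stress response genes ATF4, ATF3, DDIT3, CHAC1, TRIB3, SESN2, DDIT4, ASNS and PPP1R15A were examined for acetylation of histone H3 at lysine 27 (H3K27ac), a mark of active promoters and enhancers. The genes were chosen by name, and every region that the authors' deposited table assigns to one of them was taken. This gave 37 regions of 91107 distinct regions, and 9 genes of 17301 with an assigned region. A375 cells, an established melanoma line of human origin kept in DMEM with serum, were profiled by ChIP-seq, in which DNA bound to the marked histone is precipitated and sequenced. For 48 hours the cells of 2 libraries received 1 mM octanoate, which is a fatty acid of medium chain length, and those of 2 others received its vehicle, isopropanol. The labels do not say whether the libraries of a group came from separate cultures, so the p-values measure the spread between these libraries, which may be technical.

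The values are those of 1 comparison between the groups. For each region the authors' deposited table gives a mean level over libraries in normalized units, a log2 fold change, the standard error that the model assigned to it, and p-values. It holds no value per library, so depth is unknown, no spread between replicates can be given, and each error below is that standard error. The header does not name the numerator of the fold change. Values are therefore called positive or negative, and whether positive means higher under octanoate was not established. Coordinates are given as in the table, whose build is hg38 per the submitters' processing notes. Each region belongs to the gene that the authors assigned, which does not show that it regulates that gene.

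The integrated stress response is a signalling pathway in which kinases that sense endoplasmic reticulum stress, amino acid shortage, haem shortage, mitochondrial stress or double-stranded RNA phosphorylate the alpha subunit of the translation factor eIF2. General protein synthesis then falls, while translation of the ATF4 messenger RNA increases through short upstream reading frames. ATF4 protein, often paired with a C/EBP family member, binds composite sites in target genes and raises their transcription. The targets include further transcription factors, amino acid enzymes and transporters, inhibitors of growth signalling, and the phosphatase subunit that closes the loop. In melanoma the pathway is known for its part in responses to nutrient limitation and to targeted drugs.

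The promoter sequences of 5 genes are shown. CHAC1 and TRIB3 mark the top and ATF4 the bottom of the range of fold changes at the starts of the 9 genes. The promoter of ASNS holds a composite site of ATF4 and C/EBP proteins, and that of PPP1R15A a cyclic AMP response element. The sequences were taken by symbol from the RefSeq promoter table of GRCh38.p14 and run from 250 bases before to 50 bases after a transcription start. All 9 genes had at least 1 window in that table, 15 windows in all. Each window shown lies inside the H3K27ac region at the start of its gene. The authors' distances imply starts at 40952962 for CHAC1 and 380617 for TRIB3. These precede the windows shown, though they lie inside the same H3K27ac regions. Motif positions are counted from the RefSeq starts. Capitals mark matches to the motifs described after the sequences.

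CHAC1, chr15:40953221-40953520, plus strand: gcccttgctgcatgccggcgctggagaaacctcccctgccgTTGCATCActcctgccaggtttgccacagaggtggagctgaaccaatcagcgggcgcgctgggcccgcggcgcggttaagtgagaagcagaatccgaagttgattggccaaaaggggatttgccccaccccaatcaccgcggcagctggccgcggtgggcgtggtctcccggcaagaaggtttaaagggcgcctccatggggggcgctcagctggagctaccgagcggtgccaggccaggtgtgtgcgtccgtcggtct
TRIB3, chr20:381045-381344, plus strand: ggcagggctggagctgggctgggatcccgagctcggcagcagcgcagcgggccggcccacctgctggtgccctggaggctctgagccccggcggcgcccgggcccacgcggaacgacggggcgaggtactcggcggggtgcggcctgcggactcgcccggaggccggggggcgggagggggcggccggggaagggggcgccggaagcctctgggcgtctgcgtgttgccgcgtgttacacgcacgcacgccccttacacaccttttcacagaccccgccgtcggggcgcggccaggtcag
ASNS, chr7:97872359-97872658, minus strand: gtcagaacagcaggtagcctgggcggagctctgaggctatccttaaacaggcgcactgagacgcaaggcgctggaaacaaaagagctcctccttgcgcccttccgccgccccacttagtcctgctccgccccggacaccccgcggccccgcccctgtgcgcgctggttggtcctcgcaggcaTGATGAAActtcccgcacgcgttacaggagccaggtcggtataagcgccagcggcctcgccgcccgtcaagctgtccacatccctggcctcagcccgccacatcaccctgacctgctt
PPP1R15A, chr19:48872171-48872470, plus strand: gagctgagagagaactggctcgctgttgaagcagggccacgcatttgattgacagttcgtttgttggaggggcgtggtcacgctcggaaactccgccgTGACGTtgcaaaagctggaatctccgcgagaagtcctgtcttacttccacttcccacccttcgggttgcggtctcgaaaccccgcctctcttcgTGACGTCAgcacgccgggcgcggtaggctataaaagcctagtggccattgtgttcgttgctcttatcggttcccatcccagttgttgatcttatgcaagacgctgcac
ATF4, chr22:39520309-39520608, plus strand: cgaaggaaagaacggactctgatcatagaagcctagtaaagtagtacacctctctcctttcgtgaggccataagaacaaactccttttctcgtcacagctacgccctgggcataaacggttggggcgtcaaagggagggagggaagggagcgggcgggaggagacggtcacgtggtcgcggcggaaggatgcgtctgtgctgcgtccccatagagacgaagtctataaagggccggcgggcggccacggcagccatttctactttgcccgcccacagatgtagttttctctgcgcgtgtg

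Motifs were searched on both strands. The composite site of ATF4 and C/EBP proteins, TGATGNAA, occurred in 3.62% of all 35116 windows of the RefSeq table. It was found in the window of CHAC1, as the reverse complement TTGCATCA beginning 209 bases before the start, and in the ASNS window shown, as TGATGAAA beginning 68 bases before the start. A match in 1 of the windows of ATF3 lay outside that gene's start region. The full cyclic AMP response element TGACGTCA occurred in 1.85% of all windows and, among these genes, in PPP1R15A, beginning 58 bases before the start. Its shorter form TGACGT, which the full element contains, occurred in 7.98% of all windows and had a further match in PPP1R15A, beginning 152 bases before the start. The pattern TGANTCA, searched for AP-1 sites, allows any base in the middle and is thus broader than the site itself. It occurred in 7.71% of all windows and, among these genes, in both overlapping windows of DDIT3, as TGACTCA. The endoplasmic reticulum stress element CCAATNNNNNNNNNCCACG occurred in 0.0769% of all windows and in 0 of the 15 windows of these genes. No match was found in the windows of TRIB3, ATF4, DDIT4 or SESN2, which says only that these letters are not in those windows.

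Each of the 9 genes had 1 region at distance 0 in the authors' deposited table, read as overlap with its transcription start. The other 28 regions lay elsewhere, between 3.446 and 55.456 kb from the start of the gene. ATF3 had 10 of these, DDIT4 7, CHAC1, TRIB3 and SESN2 3 each, ASNS 2, and ATF4, DDIT3 and PPP1R15A none. Mean levels at the 9 starts ran from 63.4 at ASNS to 337.9 at DDIT4 in the authors' deposited table, with a median of 168.9 against 83.7 over all 10642 start regions. Per kb of region the mean level ran from 17.7 at ASNS to 39.7 at PPP1R15A in the authors' deposited table. The start regions were 3576 to 11454 bases wide, against a median of 3186 bases over all start regions.

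Adjusted p-values were available for 21 of the 37 regions, all 9 at starts and 12 elsewhere. The other 16, with mean levels of at most 15.4, carry the value 1 in the authors' deposited table, which was read as not computed. Regions with an adjusted p-value are called tested, and calls are tested regions with an adjusted p-value under 0.05. At an adjusted p-value under 0.05, the regions at the starts of CHAC1 and TRIB3 passed, both positive. This is 2 of the 9 start regions. Over all 9996 start regions with an adjusted p-value, 0.860% were positive calls of the authors' deposited table, and over all 36436 regions with one, 1.65%. Of the 12 regions elsewhere 0 passed, against 1.95% positive calls over all regions elsewhere. An unadjusted p-value under 0.05 with a positive change was found at 6 of the 9 starts and at 3 of the 12 tested regions elsewhere. Over all tested regions of the authors' deposited table the shares were 19.2% at starts and 17.5% elsewhere.

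Positive fold changes were also frequent in the whole table. Of the 37 regions 35 were positive (94.6%), beside 73.7% of all distinct regions of the authors' deposited table. At starts 8 of 9 were positive (88.9%), beside 97.7% of all start regions, and elsewhere 27 of 28 (96.4%), beside 70.5% of all regions elsewhere. The share of positive regions depends on the mean level: with a mean level of at least 50 it was 16 of 17 (94.1%), beside 92.6% of all such regions. The median log2 fold change of the 9 starts was 0.67, beside 0.35 over all tested start regions of the authors' deposited table. The median of the 12 tested regions elsewhere was 0.36, beside 0.31 over all such regions. These medians are descriptions of genes chosen with earlier results of this table known, and they carry no test.

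**Figure D1:**
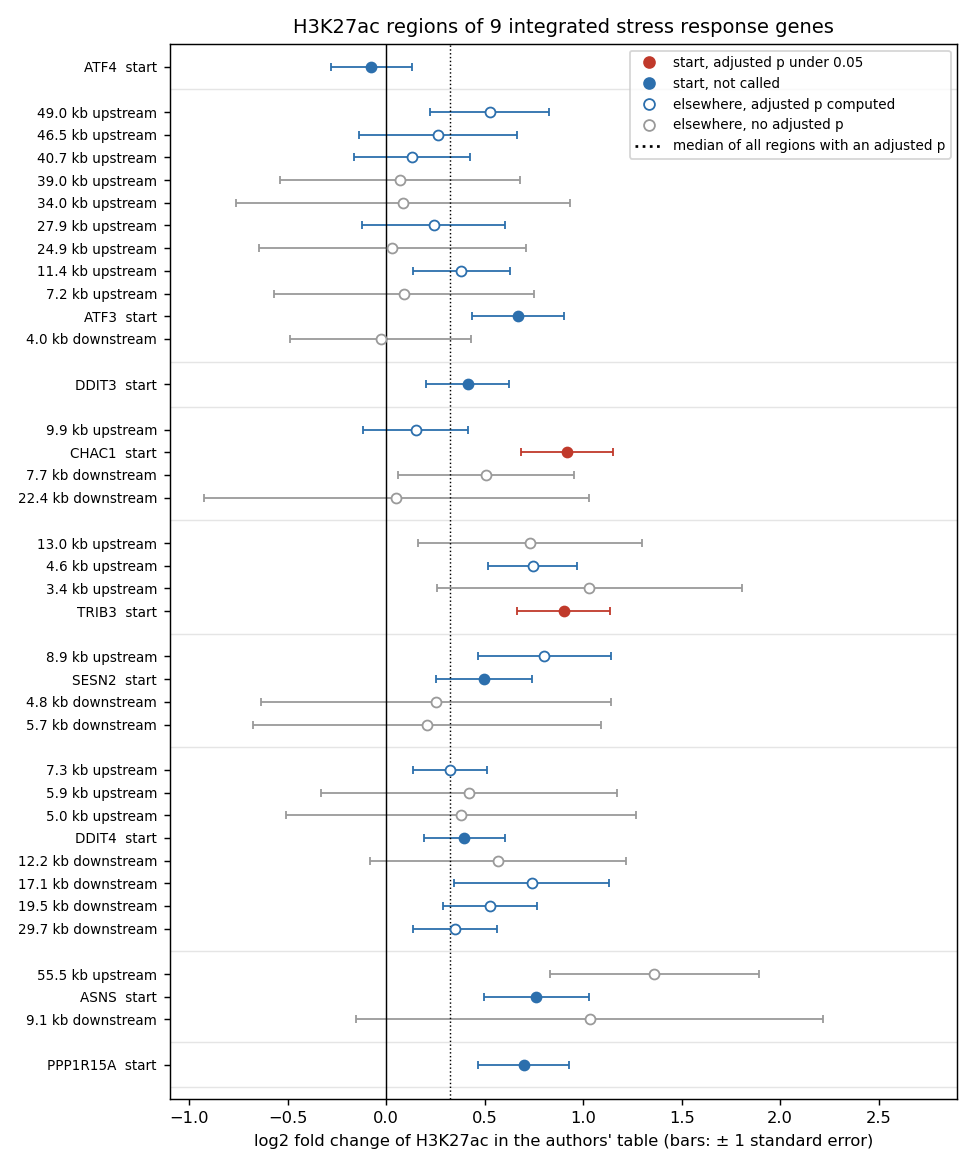
Log2 fold change of H3K27ac (horizontal axis) for each of the 37 regions of the 9 genes, with bars of 1 standard error of the authors' model; filled points are regions at the gene start, open points lie elsewhere at the distance given, grey points have no adjusted p-value and red points passed an adjusted p-value of 0.05. The starts of CHAC1 and TRIB3, at 0.92 and 0.90, lie farthest to the right among the starts, and the start of ATF4, at -0.08, lies left of 0.

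Among the transcription factors, ATF4, the central activator of the pathway, had the lowest start value of the 9. Its start region (chromosome 22, 39517820 to 39524016) had a mean level of 195.5 and a log2 fold change of -0.08 ± 0.21 (standard error) in the authors' deposited table (adjusted p = 0.822). The interval of 95% from that standard error ran from -0.48 to 0.33. A lower fold change was held by 0.80% of all tested start regions of the authors' deposited table. Among the 999 start regions in the same decile of mean level, whose median was 0.29, 0.200% did. The region also overlaps the RefSeq span of MIEF1, the gene before ATF4 on the chromosome. The mean level of the ATF4 start region was above that of 88.8% of tested start regions. Whether level bears on its fold change was not tested.

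ATF3, a transcription factor induced by ATF4 that also represses targets of the pathway, had 11 regions. The start region (chromosome 1, 212607006 to 212610760) had a mean level of 120.1 and a log2 fold change of 0.67 ± 0.23 (standard error) in the authors' deposited table (p = 0.00419 unadjusted and 0.107 adjusted). Of all tested start regions 91.9% had a lower value. The distances of the other ATF3 regions place the authors' start at 212608670, and neither RefSeq window of ATF3 lies inside the start region, so the authors' ATF3 start differs from both RefSeq starts. The other regions of ATF3 ran from 48.999 kb upstream to 4.012 kb downstream, 8 of these 10 within the RefSeq span of the gene. The 5 with an adjusted p-value had log2 fold changes from 0.13 to 0.53 in the authors' deposited table, all below that of the start. The strongest of them, 11.355 kb upstream with a mean level of 71.9, had 0.38 ± 0.24, and the extremes were 48.999 and 40.657 kb upstream. These distances are from the authors' start. The region 40.657 kb upstream, with 0.13, begins at 212566058, shortly after the RefSeq window 212565157 to 212565456 of ATF3. It is thus far from the authors' start but near a RefSeq start. The 5 weaker regions of ATF3 ranged from -0.03 to 0.09. Their mean levels were 4.62 to 15.4 and their standard errors 0.46 to 0.85, so these values are imprecise.

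DDIT3 encodes CHOP, a transcription factor that promotes cell death under prolonged stress. Its only region (chromosome 12, 57516680 to 57527146) is 10466 bases wide and had a mean level of 315.7 and a log2 fold change of 0.41 ± 0.21 (standard error) in the authors' deposited table (p = 0.0506 unadjusted and 0.272 adjusted). The table lists the same region for MBD6 and for RP11-181L23.10. Signal at the starts of these genes cannot be told apart.

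CHAC1, an enzyme that degrades glutathione and a target of ATF4, ATF3 and CHOP, had the largest start value of the 9. The region (chromosome 15, 40951760 to 40956131) had a mean level of 103.2 and a log2 fold change of 0.92 ± 0.23 (standard error) in the authors' deposited table, a ratio of 1.89 (p = 8.88e-05 unadjusted and 0.0158 adjusted). Of all tested start regions 98.2% had a lower value. A region of similar level 9.854 kb upstream (81.7) had 0.15 ± 0.27 in the authors' deposited table (adjusted p = 0.732). The value upstream was lower than that at the start, and the difference between these regions was not tested. The weak regions 7.708 and 22.432 kb downstream had 0.51 and 0.05, with standard errors of 0.45 and 0.98 in the authors' deposited table.

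TRIB3, a pseudokinase that binds ATF4 and dampens the response, had the other call. Its start region (chromosome 20, 378302 to 383339) had a mean level of 168.9 and a log2 fold change of 0.90 ± 0.24 (standard error) in the authors' deposited table, a ratio of 1.87 (p = 0.000131 unadjusted and 0.0195 adjusted). Of all tested start regions 98.0% had a lower value. A second strong region 4.627 kb upstream (368614 to 375990, mean level 153.8) had 0.74 ± 0.23 in the authors' deposited table and missed the threshold (p = 0.00104 unadjusted and 0.0546 adjusted). The weak regions 3.446 and 12.972 kb upstream had 1.03 ± 0.77 and 0.73 ± 0.57 in the authors' deposited table. All 4 regions of TRIB3 were at or above 0.73, and the 4 regions of CHAC1 ranged from 0.05 to 0.92. Only 2 regions of each gene were tested, with 0.90 and 0.74 at TRIB3 and 0.92 and 0.15 at CHAC1. The standard errors of the weak regions were too wide to tell the genes apart.

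The calls at CHAC1 and TRIB3 rest on the level around which fold changes are read. The median log2 fold change of all regions with an adjusted p-value was 0.32 in the authors' deposited table. With that median subtracted and the standard errors kept, CHAC1 had 0.59 and TRIB3 0.58, with adjusted p-values of 0.551 and 0.607 computed from the authors' deposited table, and 0 of the 21 regions passed. Unadjusted p-values for CHAC1 and TRIB3 were then 0.0113 and 0.0142, and these 2 regions alone of the 21 were under 0.05. Of all regions, 0.0521% passed above the median after that centring. A scaling difference between libraries and a common change in the mark cannot be told apart here.

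SESN2, a stress-induced inhibitor of the growth kinase mTORC1, had 0.50 ± 0.24 (standard error) at its start (chromosome 1, 28258282 to 28263626) in the authors' deposited table, at a mean level of 122.3 (p = 0.0411 unadjusted and 0.254 adjusted). A smaller region 8.923 kb upstream (28249155 to 28250604, mean level 28.9) had 0.80 ± 0.34 in the authors' deposited table (p = 0.0177 unadjusted and 0.190 adjusted). The 2 weak regions downstream of the start had 0.25 and 0.21, with standard errors near 0.89.

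DDIT4, or REDD1, another inhibitor of mTORC1 signalling, had a larger mean level summed over its assigned regions than each of the other 8 genes. The sum was 1127 in the authors' deposited table, with 53717 bases covered by the 8 regions of DDIT4. Next by this sum were ATF3 with 395.1 over 15648 bases and TRIB3 with 336.3 over 13227 bases. Such a sum grows with the number and width of the assigned regions. Per kb, the DDIT4 start region had 29.5. The starts of PPP1R15A, TRIB3, ATF3, ATF4 and DDIT3 had more, from 30.2 to 39.7. Those of CHAC1, SESN2 and ASNS had less, from 17.7 to 23.6. The broadest DDIT4 region, 23958 bases wide and 7.267 kb upstream, had a mean level of 463.6, above 99.6% of tested regions elsewhere. Per kb this broadest region had 19.4. Its log2 fold change was 0.32 ± 0.19 (standard error) in the authors' deposited table, which equals the median of all tested regions to 2 decimals. The start region (chromosome 10, 72270090 to 72281544) had 0.40 ± 0.21 in the authors' deposited table (adjusted p = 0.280). Downstream, the region 72293456 to 72299842 (mean level 149.2) had 0.53 ± 0.24 in the authors' deposited table (p = 0.0265 unadjusted and 0.218 adjusted). A region 29.698 kb downstream had 0.35 ± 0.21. The largest value among the regions of DDIT4 was 0.74 ± 0.40 in the authors' deposited table, in a region of low level (19.6) 17.067 kb downstream. None of the 8 regions of DDIT4 passed.

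ASNS encodes asparagine synthetase, an amino acid enzyme whose promoter is a classic target of ATF4. The start region (chromosome 7, 97869374 to 97872950) had the lowest mean level of the 9 starts, 63.4, and a log2 fold change of 0.76 ± 0.27 (standard error) in the authors' deposited table (p = 0.00451 unadjusted and 0.111 adjusted). Of all tested start regions 95.2% had a lower value. A weak region 55.456 kb upstream (97927923 to 97928472, mean level 14.1) had the largest fold change of the 37, 1.36 ± 0.53 in the authors' deposited table (unadjusted p = 0.0101, with no adjusted value). That region overlaps the far 5′ end of the RefSeq span of ASNS. A region of very low level (2.27) inside the gene had 1.03 ± 1.18 in the authors' deposited table.

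PPP1R15A encodes GADD34, the regulatory phosphatase subunit that directs removal of the phosphate from eIF2, which restores translation. Its only region (chromosome 19, 48871525 to 48876961) had a mean level of 215.9 and a log2 fold change of 0.70 ± 0.23 (standard error) in the authors' deposited table (p = 0.00258 unadjusted and 0.0850 adjusted). Of all tested start regions 93.1% had a lower value.

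In order of fold change at the start in the authors' deposited table, CHAC1 and TRIB3 were followed by ASNS, PPP1R15A, ATF3, SESN2, DDIT3, DDIT4 and ATF4. Neighbours in that order down to DDIT4 differed by less than 1 standard error of either. Between DDIT4 and ATF4 the step was wider, but their intervals of 95% overlapped. The interval of ATF4, up to 0.33, did not reach those of CHAC1, from 0.46, or TRIB3, from 0.44. The difference between genes was not tested, because the values of single libraries are not in the table.

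**Figure D2:**
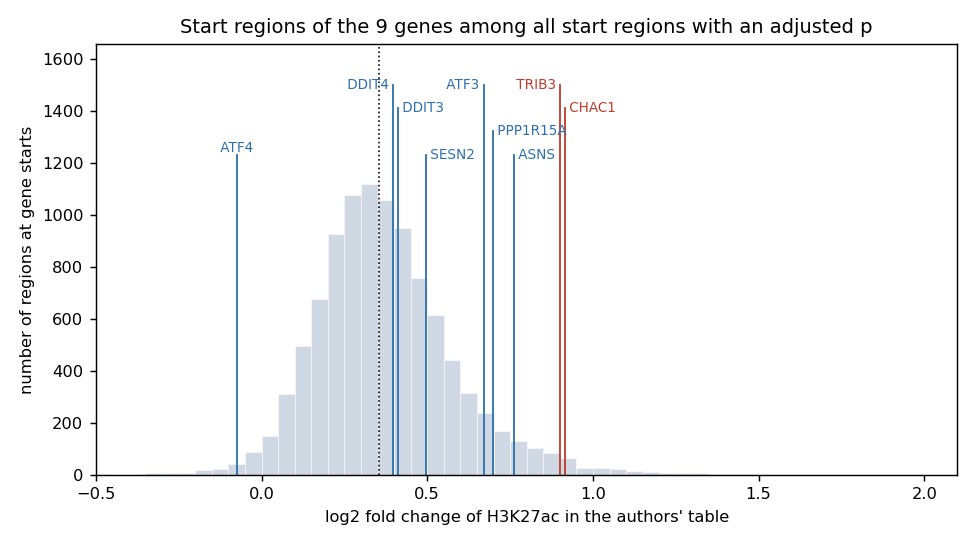
Number of tested start regions (vertical axis) by log2 fold change of H3K27ac (horizontal axis, bars of 0.05), with lines at the start regions of the 9 genes and a dotted line at the median of 0.35. CHAC1 and TRIB3 (red, called) lie in the upper tail, ATF4 in the lower tail, and DDIT4 and DDIT3 near the middle.

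Regions assigned to other genes within 50 kb of the start regions were compared next, to see whether the values at the starts differed from those around them. At TRIB3, 5 such regions were tested, and the authors' deposited table gives them log2 fold changes between 0.37 and 1.03, with 2 calls. One call, assigned to NRSN2 (361939 to 366083), had 0.97 ± 0.26 (standard error), and the other, assigned to RBCK1 (399322 to 403361), had 1.03 ± 0.27. They lie on either side of TRIB3, 12.219 and 15.983 kb from its start region, while the start of RBCK1 itself had 0.37 ± 0.24. At CHAC1, 4 tested neighbours lay between 0.25 and 1.05 in the authors' deposited table, with 1 call, in a region assigned to INO80 (40997970 to 41002481, 1.02 ± 0.23, adjusted p-value 0.00555), 41.839 kb away. The start region of DLL4, 20.635 kb away, had 1.05 ± 0.42 and did not pass. Fold changes of this size around CHAC1 and TRIB3 were therefore not restricted to the regions assigned to those genes. The INO80 call lay 113874 bases from the start of INO80, farther than from the CHAC1 start region. The NRSN2 call lay about as far from the start of NRSN2 as from the TRIB3 start region. The RBCK1 call lay nearer to the start of RBCK1, at 4982 bases. Which gene each call bears on was not tested.

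Around ATF4 all 4 tested neighbours had higher fold changes than its start in the authors' deposited table, from 0.01 to 0.33. Weak neighbours without an adjusted p-value, assigned to MIEF1, lay on both sides of the ATF4 value, from -0.48 to 0.89. Their standard errors were 0.76 to 1.23. The starts of MIEF1 and RPS19BP1 on either side had 0.30 ± 0.24 and 0.33 ± 0.30 (standard error). At ATF3 and PPP1R15A the start exceeded each tested neighbour, 2 and 3 in number, which ran from 0.17 to 0.21 and from 0.30 to 0.52 in the authors' deposited table. At SESN2, 2 of 5 tested neighbours were higher than its start, the 5 lying between 0.34 and 0.66, and at DDIT4 1 of 2, with 0.28 and 0.50. At DDIT3, 3 of 4 tested neighbours were higher than its start, among them the shared start of ARHGAP9 and MARS1 with 0.70 ± 0.22. ASNS had 0 neighbours in the window. Median fold changes of the start regions on the chromosomes of the 9 genes ran from 0.34 on chromosomes 1, 10 and 12 to 0.40 on chromosome 19 in the authors' deposited table.

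**Figure D3:**
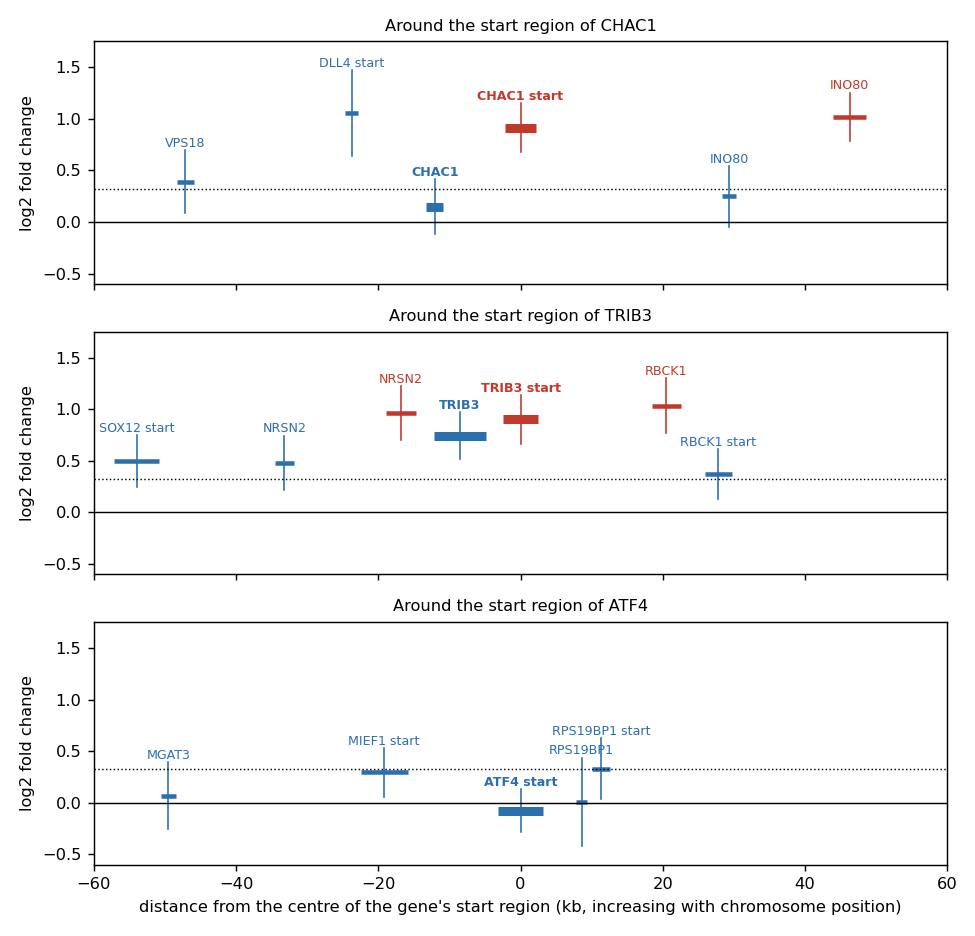
Log2 fold change of H3K27ac (vertical axis, lines of 1 standard error) of regions with an adjusted p-value within 50 kb of the start regions of CHAC1, TRIB3 and ATF4, against distance from the centre of the start region; horizontal bars span each region, thick bars belong to the named gene, red marks an adjusted p-value under 0.05 and the dotted line is the median of all tested regions. Calls assigned to NRSN2 and RBCK1 flank TRIB3, and the ATF4 start lies below its 4 tested neighbours.

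The rest of the pathway was followed in 8 lists of 77 genes, of which 13 were found under older symbols (SARS1 as SARS, NARS1 as NARS and DELE1 as KIAA0141 among those named here). Their 206 regions with an adjusted p-value held 4 calls of the authors' deposited table, all positive, or 1.94%, beside 1.65% over all regions. The median log2 fold change of these 206 was 0.31, beside 0.32 over all. At starts 3 of 73 tested regions were called (4.11%), beside 0.860% of all tested start regions of the authors' deposited table. An unadjusted p-value under 0.05 was found at 20 of these 73 starts (27.4%), beside 19.2%. Their median was 0.36, beside 0.35.

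The called starts belonged to GDF15, a secreted stress cytokine (chromosome 19, 18384225 to 18388032, 1.11 ± 0.26, standard error, adjusted p-value 0.00651), to SARS1, the seryl-tRNA synthetase (chromosome 1, 109213362 to 109216871, 1.04 ± 0.23, 0.00476), and to XBP1, a transcription factor of the unfolded protein response (chromosome 22, 28797405 to 28802455, 0.81 ± 0.23, 0.0362), all in the authors' deposited table. The other call lay 49317 bases from the start of VLDLR, a lipoprotein receptor (1.23 ± 0.35, 0.0380). With p-values adjusted over all distinct regions GDF15 and SARS1 passed, with 0.0163 and 0.0119, and XBP1 and VLDLR did not, with 0.0891 and 0.0934. None of the 4 passed after centring.

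Counts for single lists may be read against 1.65% positive calls and 17.9% positive regions with unadjusted p under 0.05 over all tested regions of the authors' deposited table. The 4 kinases that phosphorylate eIF2 had start values from 0.20 (EIF2AK4, which senses amino acid shortage) to 0.50 (EIF2AK3, or PERK, of the endoplasmic reticulum) in the authors' deposited table, with 0 calls and 1 of 8 tested regions with unadjusted p under 0.05. The 9 genes of eIF2, of its exchange factor eIF2B and of the phosphatase partner PPP1R15B ran from 0.06 at EIF2B1 to 0.46 at PPP1R15B, with 0 calls and a start median of 0.25; 1 of 14 tested regions had an unadjusted p-value under 0.05. PPP1R15B, the constitutive counterpart of PPP1R15A, had 0.46 ± 0.19 (standard error, adjusted p = 0.173) in the authors' deposited table. Among other transcription factors the start values ran from 0.21 at ATF5 to 0.68 at CEBPG, a partner of ATF4, with 0 calls and 7 of 22 tested regions at an unadjusted p-value under 0.05. The list of other ATF4 targets had 2 calls among 38 tested regions, those of GDF15 and VLDLR, and 13 with unadjusted p under 0.05. Its lowest start value was 0.24 at DDR2.

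The 12 aminoacyl-tRNA synthetases, enzymes that charge transfer RNAs and are a known group of ATF4 targets, had 1 call among 20 tested regions, 6 with unadjusted p under 0.05, and start values from 0.21 at NARS1 to 1.04 at SARS1 in the authors' deposited table. Amino acid synthesis and transport genes had 0 calls among 67 tested regions, 9 of them positive at an unadjusted p-value under 0.05, with start values from 0.13 at SLC3A2 to 0.83 ± 0.29 (standard error) at PYCR1, a proline synthesis enzyme. In the other arms of the unfolded protein response the call at XBP1 was 1 of 26 tested regions, of which 8 had unadjusted p under 0.05. PDIA4, an endoplasmic reticulum chaperone, had the only negative start value of the 8 lists, -0.15 ± 0.24 in the authors' deposited table. Genes of mitochondrial stress signalling had 0 calls among 11 tested regions, 1 of them with unadjusted p under 0.05, and start values from 0.05 at DELE1 to 0.53 at LONP1, a mitochondrial protease.

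**Figure D4:**
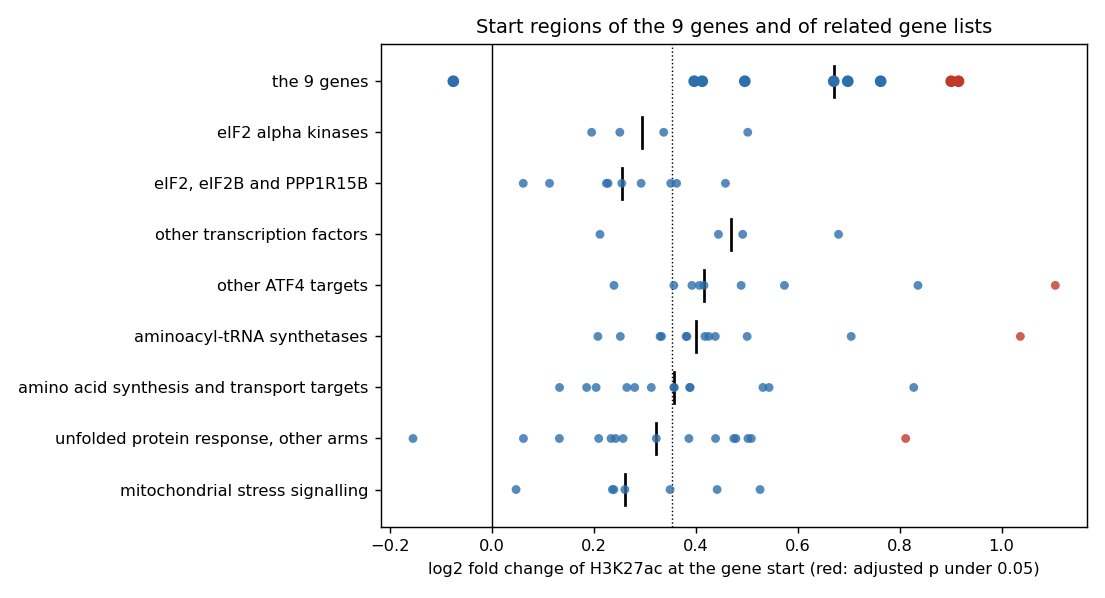
Log2 fold change of H3K27ac at gene starts (horizontal axis) for the 9 genes and for 8 related gene lists (rows); each point is a start region, red points have an adjusted p-value under 0.05, black bars are medians and the dotted line is the median of all tested start regions. The median of the 9 genes is 0.67 and those of the lists run from 0.25 to 0.47.

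Marker genes were looked up as a check of the labelled cell type. Of 8 melanocyte lineage genes, SOX10, PMEL, MITF and PAX3 had a start region, with a mean level of 773.5 at SOX10 in the authors' deposited table, above 99.7% of all start regions, and MLANA, TYR, DCT and TYRP1 had none at the start. AXL, NGFR, EGFR and SOX9, markers of dedifferentiated melanoma, all had a start region, with mean levels from 39.4 to 515.6. SOX9 had the lowest of these, above 18.2% of all start regions, and AXL the highest, above 99.2%. EGFR, at 50.5, was above 25.5%. Of 10 markers of epithelium, blood, liver and endothelium, EPCAM had a start region at a level of 50.5, close to that of EGFR. APOA1 had 1 at 9.80, and the other 8 had none.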

How the data were processed

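H3K27ac was profiled in A375 cells, 2 vehicle and 2 octanoate libraries, grouped by the treatment in the labels. The submitters' processing notes name hg38, Trim Galore, cutadapt, FastQC, Bowtie2, Picard, MACS2, featureCounts, DESeq2 and bedtools 2.29.1, without their roles. The deposited table holds 1 comparison. Per the file headers, mean levels are signal that the authors normalized, and fold changes with their errors are on the log2 scale of the authors. The score deposited by the authors equalled their ratio of fold to standard error to within 3.38e-14. The deposited p-value matched a two-sided p from the normal distribution to within 4.47e-15, and Benjamini-Hochberg adjustment over 36436 regions returned the deposited adjusted values. Depth per library is unknown, and 0 columns of single libraries were left out.

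Lines that repeat a region for another gene were merged. Calls are the authors' adjusted p-values under 0.05. Intervals of 95% span 1.96 standard errors. In centring, the median fold change was subtracted and p-values were recomputed and adjusted over the same regions. The procedure was run on simulated regions with changes larger than those at CHAC1 and TRIB3. That run does not show how centring treats changes of their size. Members, lists and tests were chosen with earlier results of these data known, and neighbourhoods within 50 kb, deciles of mean level and chromosome medians after seeing the values. Named were all 9 genes with their start regions and the strongest, highest and lowest regions elsewhere, those with an unadjusted p-value under 0.05, and of each list its calls and the highest and lowest start. Alternatives were other thresholds, adjustments, filters on level and centring. Python 3.11.15, pandas 2.3.3, numpy 2.4.6 and scipy 1.17.1 were used. Exons and introns were not analysed here.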

Additional observations from a re-analysis of the deposited data

How the results depend on the processing

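The count of 2 calls among 21 regions (9.52%, beside 1.67% of all tested regions in either direction), at CHAC1 and TRIB3, was also 2 with p-values adjusted over all distinct regions or over all lines (5.41% of 37, beside 0.274%), over regions with a mean level of at least 10 (8.33% of 24, beside 0.870%) and with 1 line per gene (22.2% of 9, beside 1.29%). Over all distinct regions the adjusted p-values were 0.0394 for CHAC1 and 0.0486 for TRIB3. The count was 0 (0%) at an adjusted p-value under 0.01 (0.351% of all tested regions), 0 where fold changes also had to reach 1 on the log2 scale (0.876%), and 0 after centring on the median of tested regions (0.124%) or of all regions (0.110%). The 4 calls of the wider lists became 2 at 0.01, 2 adjusted over all distinct regions or all lines, and 0 after either centring. Positive regions numbered 35 of 37 (73.7% of all regions), 22 of 24 at a mean level of at least 10 (84.1%) and 16 of 17 at one of at least 50 (92.6%). The median of 0.50 over 21 tested regions was 0.41 with no filter, and leaving out each gene gave 0.41 to 0.53. Each gene had 1 start region, so weighting several was not needed. No paired analysis was possible because values of single libraries are not in the file used, and leaving out each library was not run for the same reason.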

Other observations

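Among the 16 weak regions of the 9 genes without an adjusted p-value, 1 had an unadjusted p-value under 0.05, the region at the far 5′ end of ASNS. It was singled out after its values were seen. Its interval of 95%, from 0.32 to 2.40 in the authors' deposited table, began at the median of all tested regions to 2 decimals, and at a mean level of 14.1 it lay below the 18.4 up to which adjusted values were missing.

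Set beside start regions of a like mean level, in deciles of about 1000 regions of the authors' deposited table, TRIB3 was above 99.6% of its decile, CHAC1 above 99.5%, PPP1R15A above 98.6%, ATF3 above 97.2%, ASNS above 96.8%, SESN2 above 85.2%, DDIT3 above 76.9% and DDIT4 above 73.8%. ATF4 was above 0.200% of its decile. The genes with the 2 broadest start regions, DDIT3 and DDIT4 at 10466 and 11454 bases, had the lowest positions after ATF4. Both lay in the decile of highest mean level, as did PPP1R15A, and a relation to width was not tested.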
